A study of Homo sapiens with 36 samples.

Results

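The genes described here encode collagens, the chains of the main structural proteins of the extracellular matrix. Members were all genes with a symbol of the form COL, number, A, number and any count in the deposited table, which gave 44 of the 45119 genes with a count. Of these, 34 had enough counts to be tested, and the other 10 had at most 0.887 CPM in any library. Because a gene could pass the count filter through the group in which it was high, counts over the 34 are not statements about the 44.

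The samples were 36 RNA-seq libraries of U2OS cells, a human osteosarcoma line, that stably carry Dmr-PERK, a fusion of the eIF2α kinase domain of mouse PERK to a DmrB dimerization domain. Adding the ligand AP20187 brings the fusion proteins together and switches the kinase on, which starts the integrated stress response without other stress. WT cells and ATF4KO cells, which lack the transcription factor ATF4, were collected untreated (0 h) or after 2, 4, 8, 16 and 24 h with the dimerizer at 1 dose, whose unit the labels do not give, in 3 replicates, which gives 12 groups. All 12 groups carry the fusion kinase. Cells without it, untreated cells collected at the later times and vehicle controls were not analysed here, so hours with the dimerizer and hours in culture cannot be told apart. The sources used here do not say whether the knockout is 1 clone, nor whether replicate wells came from separate cultures. The p-values therefore reflect only how these wells varied, which may be technical.

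Collagen chains are made in the endoplasmic reticulum, hydroxylated on proline and lysine, wound into a helix with partner chains and secreted. Fibrillar collagens then form the fibrils that give bone, skin and tendon their strength. Others build basement membranes, beaded microfibrils around cells or links between fibrils, and a few stay in the plasma membrane. Osteoblasts, the cell type that osteosarcoma resembles, secrete large amounts of type I collagen. PERK phosphorylates eIF2α when this compartment is overloaded, which slows most translation and raises translation of ATF4.

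Several collagen genes lie as neighbouring pairs. COL4A1 and COL4A2 on chromosome 13 point away from each other, with 126 bases between their RefSeq start sites, and so do COL4A4 and COL4A3 on chromosome 2, with 418 bases between theirs. COL4A6 and COL4A5 on chromosome X are another such pair. COL6A1 (chr21:45981737-46005050) and COL6A2 (chr21:46098097-46132849) lie in the same direction on the plus strand. COL1A1 lies at chr17:50183289-50201632 on the minus strand. These 3 spans are GENCODE's on GRCh38 and cover exons and introns. The DNA between or upstream of the start sites is shown for 2 of the pairs and for 4 members whose counts rose or differed in response between the genotypes. Sequences are from RefSeq promoters of build GRCh38.p14, which held 32 of the 44 members, and run 5′ to 3′. Capitals mark the letters of a CCAAT box, a TATA box or a GC box on either strand, and the letters searched are spelled out after the sequences.
The site between COL4A1 and COL4A2 is chr13:110307167-110307196 (plus strand), 30 bases around the CCAAT box that both genes have upstream.
COL4A1 and COL4A2 CCAAT site: gggccgagctccCCAATttgttggcgctgc
The stretch between the annotated ends of COL4A4 and COL4A3 is chr2:227164454-227164564 (plus strand).
COL4A4 and COL4A3 gap: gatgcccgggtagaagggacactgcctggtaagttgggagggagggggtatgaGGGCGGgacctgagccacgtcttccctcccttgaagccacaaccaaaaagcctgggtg
COL5A3 went in opposite directions in the 2 genotypes at 24 h, and its upstream bases are chr19:10010505-10010754 (minus strand).
COL5A3: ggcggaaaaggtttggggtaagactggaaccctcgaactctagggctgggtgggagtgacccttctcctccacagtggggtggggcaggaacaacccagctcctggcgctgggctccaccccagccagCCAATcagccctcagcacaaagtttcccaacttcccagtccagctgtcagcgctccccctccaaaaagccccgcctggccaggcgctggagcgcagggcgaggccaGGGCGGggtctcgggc
COL6A2 fell in the knockout, and its upstream bases are chr21:46097862-46098096 (plus strand).
COL6A2: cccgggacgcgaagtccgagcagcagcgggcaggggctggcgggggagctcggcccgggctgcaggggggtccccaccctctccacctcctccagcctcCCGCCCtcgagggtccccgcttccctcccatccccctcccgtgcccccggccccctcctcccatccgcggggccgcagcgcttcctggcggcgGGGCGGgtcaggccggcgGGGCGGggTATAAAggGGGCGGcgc
COL13A1 was higher at 4 and 8 h in both genotypes and at 24 h in WT cells only. Its upstream bases are chr10:69801656-69801866 (plus strand).
COL13A1: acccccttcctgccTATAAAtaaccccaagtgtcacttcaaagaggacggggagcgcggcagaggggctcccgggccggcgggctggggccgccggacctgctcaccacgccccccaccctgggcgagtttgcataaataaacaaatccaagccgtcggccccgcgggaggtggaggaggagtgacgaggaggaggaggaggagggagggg
COL27A1 rose in both genotypes, and its upstream bases are chr9:114155287-114155536 (plus strand).
COL27A1: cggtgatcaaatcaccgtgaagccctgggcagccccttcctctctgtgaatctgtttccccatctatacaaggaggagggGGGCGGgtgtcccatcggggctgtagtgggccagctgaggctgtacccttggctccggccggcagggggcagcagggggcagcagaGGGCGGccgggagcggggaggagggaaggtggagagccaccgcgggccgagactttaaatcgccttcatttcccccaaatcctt

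Within the 250 bases before the start, 18 of the 32 members (56.2%) held the GC box GGGCGG, against 42.3% of 27305 genes. The CCAAT box was in 9 of 32 (28.1%, against 33% of all), and the TATA box TATAAA in 5 of 32 (15.6%, against 11.1%). TGATGNAA, the composite element that ATF4 and C/EBP factors bind, was in 0 of 32, against 3.19% of all genes. With so few members, 0 of 32 cannot be told apart from that share. Members without a RefSeq entry, among them COL1A1, COL1A2, COL3A1, COL6A1, COL8A1 and COL22A1, were not searched for any motif. Each motif was searched on both strands and on its own, so matches of different motifs may overlap, and a missing match says only that these letters are not in this window.

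Total counts per library ranged from 8608783 to 16265056. TRIB3, a gene that ATF4 activates, went from a mean of 26.6 to 423 CPM (counts scaled to library size) over 24 h in WT cells and from 22.4 to 41.6 CPM in ATF4KO cells. ATF4 itself went from 318 to 703 CPM in WT and from 266 to 731 CPM in ATF4KO cells, and gene counts do not read the knockout allele. Of 8 osteoblast or osteosarcoma markers, COL1A1 among them, 5 were at 1 CPM or more in untreated WT cells, while SP7, IBSP and BGLAP were not. So were 4 of 5 epithelial, 2 of 4 chondrocyte, 1 of 3 endothelial and 0 of 4 blood cell markers. Without COL1A1 the other 7 osteoblast markers summed to 1280 CPM in untreated WT cells and 452 at 24 h, and to 1470 and 759 CPM in ATF4KO cells. The epithelial markers went from 927 to 518 CPM in WT and from 772 to 544 in ATF4KO cells. The chondrocyte markers without COL2A1 went from 188 to 38.2 CPM and from 218 to 72.5. These sums thus declined over the same hours as the collagen genes, and their part in the results was not tested. In bulk RNA, fewer cells of a kind and less RNA per cell cannot be told apart.

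Levels were compared between genes per transcript length, in the deposited TPM (estimated transcripts scaled to transcript length and library size), for untreated WT cells. The 44 collagen genes summed to 1487 ± 45.2 TPM (SD, n = 3). COL1A1, the main chain of type I collagen, was highest at 453 ± 29.4 TPM and made up 30.5% of that sum. COL16A1, a collagen that sits beside fibrils, followed at 201 ± 19.8 TPM, and COL4A2 of basement membranes at 161 ± 5.96 TPM, and neither overlapped its neighbours in this order. COL12A1 (107 ± 1.97 TPM), COL5A1 (105 ± 0.848 TPM) and COL6A2 (104 ± 3.8 TPM) overlapped. COL6A1 (62 ± 1.72 TPM) stood apart from its neighbours, while COL4A1 (53.3 ± 3.65 TPM) and COL9A2 (46.3 ± 4.59 TPM) overlapped. COL1A2, the usual partner of COL1A1 in type I collagen, was at 0.236 TPM. COL1A1 chains can also form a helix among themselves.

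**Figure D1:**
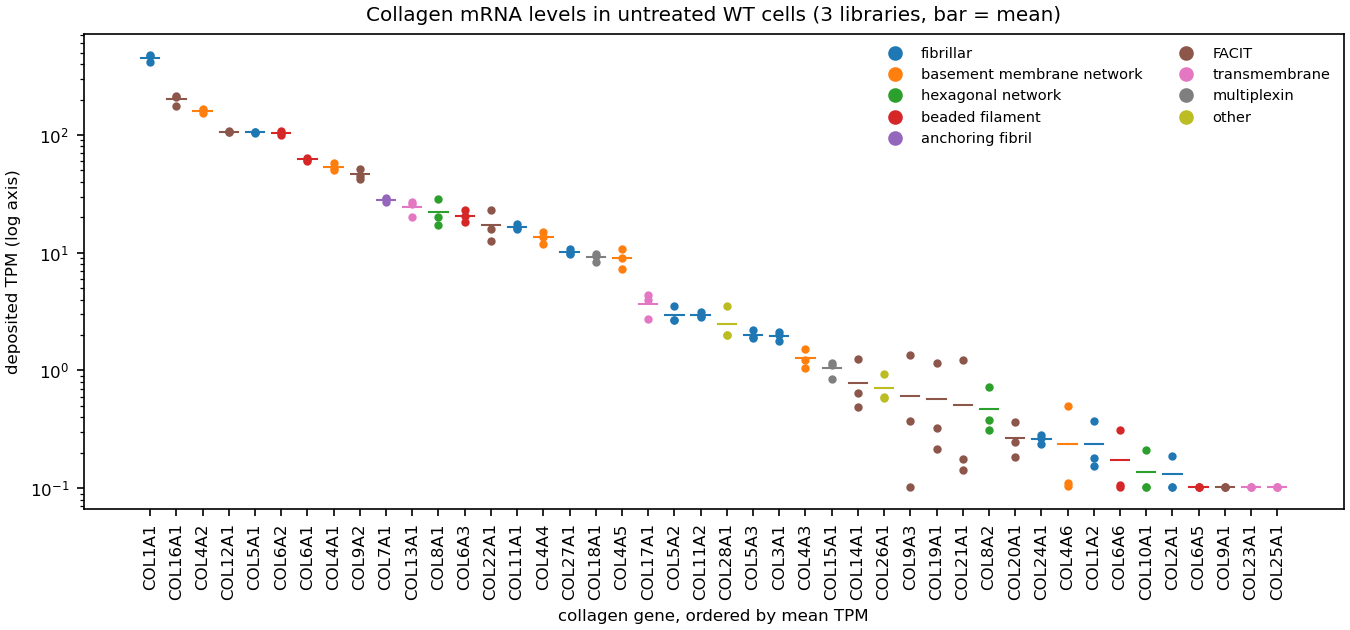
Deposited TPM on a log axis for the collagen genes in the 3 untreated WT libraries (points, with the mean as a bar), coloured by class of collagen. The smallest value in the table, 0.102292 TPM, recurs as a floor and may stand for 0, as for COL6A5, which had 0 counts in these libraries. COL1A1 is highest at 453 TPM, followed by COL16A1 at 201 and COL4A2 at 161 TPM.

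The 10 untested members were COL2A1, COL6A5, COL6A6, COL9A1, COL9A3, COL10A1, COL20A1, COL21A1, COL23A1 and COL25A1. Each had 13 to 149 counts over all 36 libraries and at most 0.887 CPM in any of them. COL2A1 and COL10A1, which mark cartilage, were among these.

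Collagen counts declined with hours of dimerizer in both genotypes. In WT cells the summed level of the 44 genes went from 4863 ± 61.7 CPM at 0 h to 4102 ± 60.3 at 8 h and 2363 ± 16.7 at 24 h (SD, n = 3). In ATF4KO cells it went from 5160 ± 92.7 to 4563 ± 106 and 3045 ± 102 CPM. At 4 h it was 4239 ± 98.9 CPM in WT and 4777 ± 160 CPM in ATF4KO cells. In the deposited TPM the WT sum was 1487 ± 45.2, 1264 ± 29.4 and 691 ± 17.7 at 0, 4 and 24 h. The ATF4KO sum was 1502 ± 120, 1518 ± 28.3 and 872 ± 33.0 TPM, so by TPM it had not declined at 4 h. Untreated and 24 h libraries did not overlap in either genotype. COL1A1 made up 30.5% of the summed TPM in untreated WT cells and 14.6% at 24 h. In ATF4KO cells it made up 29.4 ± 2.54% untreated (SD, n = 3) and 16.3% at 24 h. The third untreated ATF4KO TPM column is in doubt, as described below.

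Calls were made by edgeR's quasi-likelihood test with Benjamini-Hochberg adjustment over 19043 genes, where the adjusted p was under 0.05. All changes are log2 fold changes of counts ± SE unless another scale is named. In WT cells 13 of 34 tested collagen genes were lower and 1 was higher at 2 h, against 10.4% and 12.2% of all tested genes. At 4 h the numbers lower and higher were 16 and 6 (21.1% and 23.6% of all), at 8 h 20 and 7 (29.6% and 29.7%), and at 16 h 26 and 3 (32.8% and 33.7%). At 24 h, 24 were lower and 4 higher (32.4% and 33% of all), with a median of -1.35 against -0.02 over all tested genes. Of the 27 members that averaged at least 1 CPM over all libraries, 21 were lower and 4 higher at 24 h, with a median of -1.51. Limma on log2(TPM + 1) called 2 members at 2 h in place of 14 and 13 at 4 h in place of 22. It called fewer genes of all kinds too, as counted with the third untreated ATF4KO TPM column left out. Over all genes limma then had 1262 higher and 453 lower at 2 h, against 2328 and 1984 by edgeR. At 4 h it had 3209 and 2386, against 4488 and 4023.

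In ATF4KO cells 10 of 34 were lower and 2 higher at 2 h, against 8.5% and 9.85% of all tested genes. These 12 calls became 5 without the third untreated ATF4KO library and 7 without the first ATF4KO library of 2 h. At 4 h 14 were lower and 6 higher (20.3% and 22.1% of all), at 8 h 21 and 6 (31.1% and 30.7%), and at 16 h 27 and 3 (32.7% and 33%). At 24 h, 25 were lower and 3 higher (33% and 32.4% of all), with a median of -1.14 against -0.03 over all tested genes. Of the 27 members at 1 CPM or more, 20 were lower and 3 higher, with a median of -0.79. Limma on log2(TPM + 1) called 3 members at 2 h in place of 12 and 9 at 4 h in place of 20. Over all genes, without the third untreated TPM column, limma had 827 higher and 280 lower at 2 h. EdgeR had 1875 and 1618. At 4 h limma had 2980 and 1634, against 4199 and 3874 by edgeR. Of the members lower at 24 h, 21 were lower in both genotypes, out of 24 in WT and 25 in ATF4KO cells. Over all tested genes 32.4% were lower in WT and 33% in ATF4KO cells, and the share lower in both is not given here. In each genotype 14 members were lower at 4, 8, 16 and 24 h alike, and 3 were higher at all of these times. Of all tested genes 13.3% were lower and 15.4% higher at all 4 times in WT cells, and 12.8% and 13.4% in ATF4KO cells. The 3 were COL6A3, COL27A1 and COL13A1 in WT cells and COL6A3, COL27A1 and COL5A3 in ATF4KO cells. The WT call of COL6A3 at 24 h was lost with DESeq2, with limma on log2(TPM + 1) and without the second or the third untreated WT library.

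**Figure D2:**
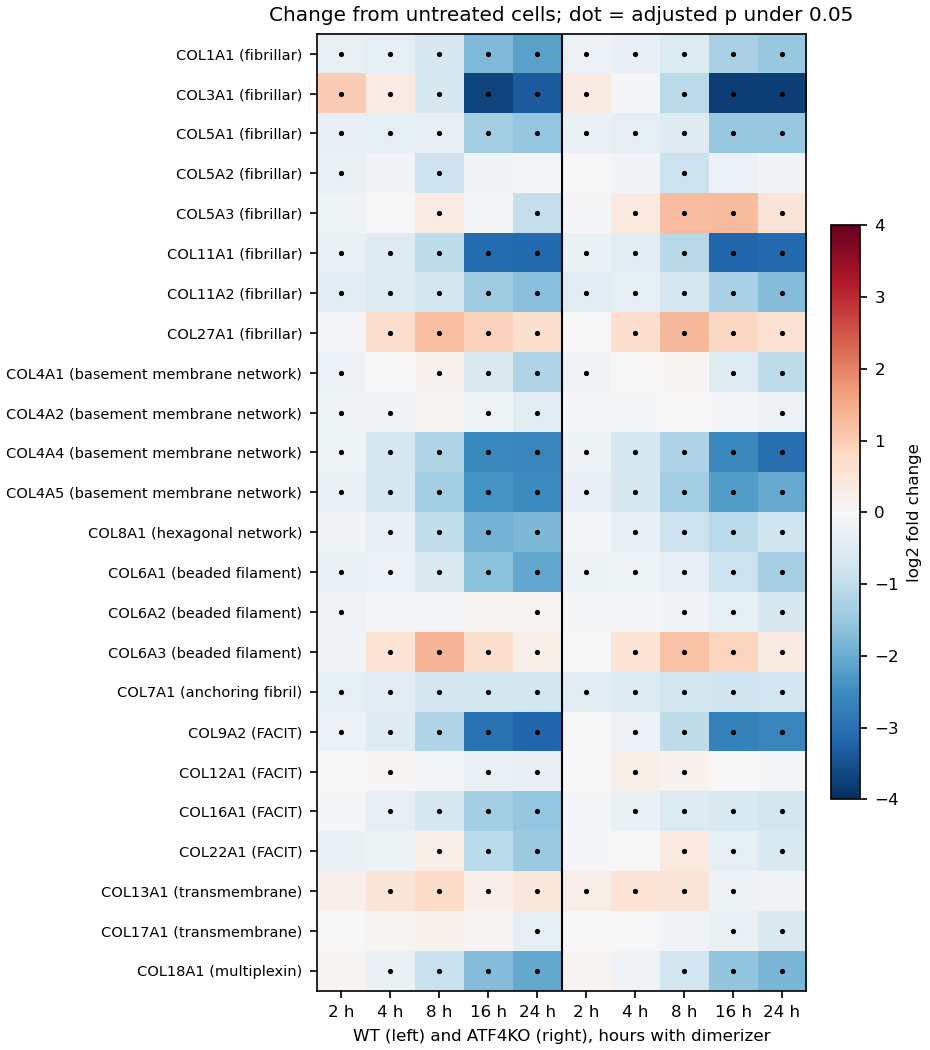
Log2 fold change from untreated cells of the same genotype for the 24 collagen genes that reached a mean of 5 CPM in some group, by hours with the dimerizer, for WT and ATF4KO cells, with a dot where the adjusted p is under 0.05. COL6A3 and COL27A1 are higher with a dot from 4 to 24 h in both genotypes, while most other genes are lower at 16 and 24 h.

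Of the 10 tested fibrillar collagens, 7 were lower and 1 higher at 24 h in WT cells, and 6 and 2 in ATF4KO cells. The shares over all tested genes at 24 h were 32.4% lower and 33% higher in WT and 33% and 32.4% in ATF4KO cells. COL1A1 was at 1373, 1445 and 1419 CPM in the untreated WT libraries and at 306, 311 and 339 CPM at 24 h. ATF4KO libraries had 1385, 1389 and 1469 CPM untreated and 522, 488 and 472 CPM at 24 h. The untreated levels overlapped between the genotypes, and at 24 h every WT library was below every ATF4KO library. The change at 24 h was -2.15 ± 0.04 (adjusted p = 3.7e-37) in WT and -1.52 ± 0.04 (adjusted p = 1.8e-32) in ATF4KO cells by edgeR. COL1A1 was already lower at 2 h, by -0.29 ± 0.03 in WT and -0.22 ± 0.03 in ATF4KO cells.

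COL11A1, a chain of the thin fibrils of cartilage, fell by more than COL1A1 in both genotypes. It was at 55.7, 56.0 and 55.3 CPM in untreated WT cells and at 6.9, 6.0 and 6.36 CPM at 24 h, a change of -3.12 ± 0.09. ATF4KO cells started lower, at 31.8, 28.3 and 34.5 CPM, and reached 3.94, 3.18 and 3.83 CPM, a change of -3.12 ± 0.11. The difference between these responses was -0.01 ± 0.14 (adjusted p = 0.98, edgeR). COL11A2, its partner, changed by -1.68 ± 0.14 in WT and -1.73 ± 0.16 in ATF4KO cells.

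COL3A1, a fibrillar chain of skin and vessel walls, rose before it fell. It was at 5.93, 6.4 and 7.16 CPM in untreated WT cells, 12.1, 14.3 and 12.9 CPM at 2 h and 0.345, 0.75 and 0.848 CPM at 24 h. By edgeR the 2 h change was 1.02 ± 0.12 (adjusted p = 1.6e-08), and the 24 h change was -3.32 ± 0.23. In ATF4KO cells the 2 h change was 0.35 ± 0.12 (adjusted p = 0.04), a call made neither by DESeq2 (0.36, adjusted p = 0.076) nor without the count filter (0.36, adjusted p = 0.11). The difference between the 2 h responses, -0.66 ± 0.17, was not called by edgeR (adjusted p = 0.11).

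COL5A1 and COL5A2, chains of type V collagen, which sets the width of fibrils, did not move alike. COL5A1 went from 458 ± 11.4 to 157 ± 2.53 CPM in WT and from 509 ± 15.6 to 178 ± 6.09 CPM in ATF4KO cells (SD, n = 3), changes of -1.55 ± 0.04 and -1.52 ± 0.04 at 24 h. On the log2(TPM + 1) scale these changes were smaller, at -0.89 and -0.36. COL5A2 was at 12.2 ± 0.643 CPM in untreated WT cells, 7.01 ± 0.351 at 8 h and 11.7 ± 1.17 at 24 h. Its change was -0.81 ± 0.12 at 8 h and -0.06 ± 0.10 at 24 h (adjusted p = 0.61, edgeR). In ATF4KO cells COL5A2 changed by -0.85 ± 0.13 at 8 h. For COL5A1 the deposited TPM went the other way at 8 h in ATF4KO cells: the count change was -0.51 ± 0.04, and limma on log2(TPM + 1) gave 0.18, adjusted p = 0.086.

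COL5A3, the third chain of type V collagen, had opposite changes at 24 h. In WT cells it was at 8.17, 9.26 and 8.01 CPM untreated and at 3.79, 4.72 and 4.35 CPM at 24 h. That was a change of -0.97 ± 0.14 by edgeR (adjusted p = 5.8e-08). At 8 h COL5A3 was called higher in WT cells, at 10.5 ± 1.47 CPM (SD, n = 3), though these libraries overlapped the untreated ones. ATF4KO libraries had 6.24, 4.98 and 6.98 CPM untreated, 14.6, 13.9 and 15.0 CPM at 8 h and 8.46, 8.6 and 9.41 CPM at 24 h. All ATF4KO libraries of 8 h and 24 h were above the untreated ones, with changes of 1.24 ± 0.12 and 0.53 ± 0.13 (adjusted p = 0.00031 at 24 h, edgeR). The difference between the 24 h responses was 1.49 ± 0.19 (adjusted p = 1.8e-08). On the log2(TPM + 1) scale limma did not call the ATF4KO change at 24 h (0.14, adjusted p = 0.45).

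COL27A1, a fibrillar collagen of cartilage, rose in both genotypes. It was at 32.5, 34.5 and 32.9 CPM in untreated WT cells, 70.9, 81.6 and 76.6 CPM at 8 h and 52.9, 53.8 and 48.1 CPM at 24 h. ATF4KO cells had 35.6, 35.8 and 35.7 CPM untreated, 86.7, 86.5 and 87.6 CPM at 8 h and 55.1, 56.2 and 53.7 CPM at 24 h. Libraries of 8 and 24 h were above all untreated ones, with changes at 8 h of 1.21 ± 0.07 in WT and 1.28 ± 0.06 in ATF4KO cells. The changes at 24 h were 0.64 ± 0.07 and 0.62 ± 0.07, and their difference was -0.02 ± 0.10. With the third untreated ATF4KO TPM column left out, limma on log2(TPM + 1) did not call the ATF4KO change at 24 h (0.30, adjusted p = 0.1).

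COL1A2 summed to 32 counts in the untreated WT libraries and to 2 at 24 h. Per library size it was 13.9-fold higher untreated (95% exact interval 3.55 to 120.0, counting error only). In ATF4KO cells its change at 24 h was -1.03 ± 0.50 (adjusted p = 0.067, edgeR).

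**Figure D3:**
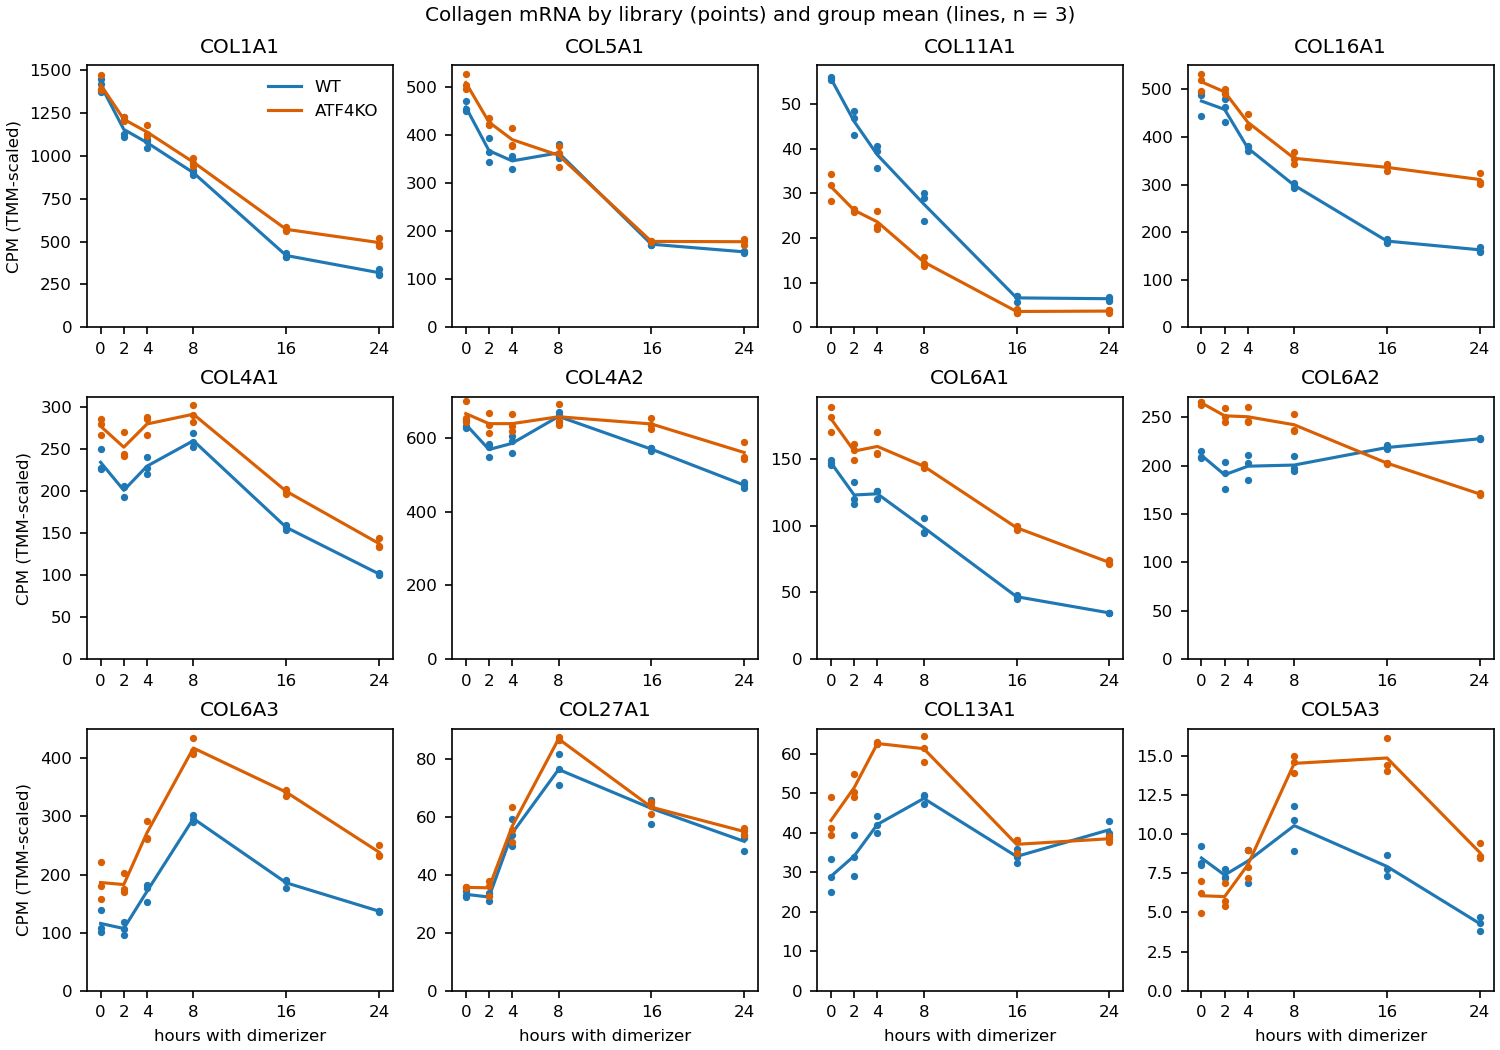
CPM against hours with the dimerizer for 12 collagen genes, with a point per library and a line through the mean of 3 libraries, in WT and ATF4KO cells. COL1A1, COL5A1, COL11A1 and COL16A1 decline, COL6A3 and COL27A1 peak at 8 h in both genotypes, and the COL6A2 lines cross.

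Of the 6 basement membrane collagens, 5 were lower at 24 h in WT cells and 6 in ATF4KO cells, against 32.4% and 33% of all tested genes. COL4A1 and COL4A2 form the type IV helix found in nearly all tissues. COL4A1 was at 249, 227 and 226 CPM in untreated WT cells, 268, 252 and 258 CPM at 8 h and 101, 100.1 and 102 CPM at 24 h. COL4A2 was at 650.2, 634 and 628 CPM untreated, 672, 643 and 662 CPM at 8 h and 479.7, 464 and 474 CPM at 24 h. Both had every 24 h library below every untreated one. COL4A1 changed by -1.21 ± 0.05 in WT and -1.01 ± 0.04 in ATF4KO cells at 24 h, and COL4A2 by -0.43 ± 0.04 and -0.25 ± 0.04.

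Within each library, the log2 ratio of COL4A1 to COL4A2 counts shifted in both genotypes. It was -1.38, -1.48 and -1.48 in untreated WT libraries, -1.33, -1.35 and -1.36 at 8 h and -2.24, -2.21 and -2.22 at 24 h. In ATF4KO libraries it was -1.29, -1.28 and -1.23 untreated, -1.2, -1.16 and -1.18 at 8 h and -2.03, -2.03 and -2.03 at 24 h. Untreated and 24 h libraries did not overlap, and the mean shift was -0.77 in WT and -0.76 in ATF4KO cells. With 3 libraries against 3 the exact permutation test (two-sided) cannot go below p = 0.1, the value for both shifts (adjusted p = 0.143 over 10 tests).

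COL4A4 and COL4A5, chains of the basement membranes of kidney and inner ear, fell by more. COL4A4 changed by -2.65 ± 0.09 in WT and -3.03 ± 0.11 in ATF4KO cells at 24 h, and COL4A5 by -2.55 ± 0.13 and -2.03 ± 0.10. COL4A3, the neighbour of COL4A4, reached at most 3.33 CPM in a group mean and changed by -2.11 ± 0.36 and -2.73 ± 0.44, where limma on log2(TPM + 1) gave -0.48, adjusted p = 0.073 in WT cells. It overlaps an antisense gene, AC097662.1, which had 62.4% as many counts, and no source used here states the strand setting of the counting. The COL4A4 to COL4A3 ratio shifted by -0.52 in WT (exact permutation p = 0.2) and -0.16 in ATF4KO cells (exact permutation p = 0.9). COL8A1, a hexagonal network collagen of vessel walls and the cornea, changed by -1.80 ± 0.11 in WT and -0.79 ± 0.12 in ATF4KO cells.

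The 3 tested chains of type VI collagen, which join in beaded microfibrils, moved in 3 ways. COL6A1 was at 149, 146 and 147 CPM in untreated WT cells and at 34.9, 34.3 and 34.9 CPM at 24 h, a change of -2.09 ± 0.05. COL6A1 went from 189, 170.4 and 182 CPM to 74.1, 72.1 and 71.3 CPM in ATF4KO cells, a change of -1.32 ± 0.05. All 24 h libraries were below all untreated ones, and the WT ones were below the ATF4KO ones.

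COL6A2 was at 216, 209 and 208 CPM in untreated WT cells and at 227, 229 and 227 CPM at 24 h. In ATF4KO cells it went from 266, 263 and 266 CPM to 169, 171 and 172 CPM. The groups did not overlap within either genotype, and ATF4KO cells were above WT cells untreated and below them at 24 h. The change was 0.11 ± 0.04 in WT cells (adjusted p = 0.01, edgeR), where limma on log2(TPM + 1) made no call (0.03, adjusted p = 0.77), and -0.63 ± 0.04 in ATF4KO cells (adjusted p = 2.7e-18). The difference between the responses was -0.75 ± 0.05 (adjusted p = 1.1e-14).

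COL6A3 was at 139, 108 and 101 CPM in untreated WT cells, 296, 290.2 and 302 CPM at 8 h and 138, 138 and 136 CPM at 24 h. ATF4KO libraries had 221, 158 and 179.7 CPM untreated, 434, 412 and 406 CPM at 8 h and 251, 234 and 231 CPM at 24 h. Every 8 h library was above every untreated library of its genotype, while at 24 h the WT groups overlapped. The 8 h change was 1.35 ± 0.08 in WT and 1.17 ± 0.08 in ATF4KO cells. The WT change at 24 h, 0.23 ± 0.09 (adjusted p = 0.021, edgeR), lost its call without the second untreated WT library (0.19, adjusted p = 0.094) or the third (0.14, adjusted p = 0.2), with DESeq2 (0.24, adjusted p = 0.053) and with limma on log2(TPM + 1) (0.03, adjusted p = 0.79). In ATF4KO cells the 24 h change was 0.36 ± 0.08 (adjusted p = 0.00012, edgeR).

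The log2 ratio of COL6A1 to COL6A2 counts was -0.53, -0.52 and -0.5 in untreated WT libraries and -2.71, -2.74 and -2.7 at 24 h. In ATF4KO libraries it was -0.49, -0.63 and -0.55 untreated and -1.19, -1.25 and -1.27 at 24 h. Untreated ratios overlapped between the genotypes, and 24 h ratios did not. The shift was -2.2 in WT and -0.68 in ATF4KO cells (exact permutation p = 0.1 for each, the smallest possible). The mean COL6A3 to COL6A2 ratio was -0.88, 0.56 and -0.73 at 0, 8 and 24 h in WT cells, and -0.52, 0.79 and 0.48 in ATF4KO cells.

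**Figure D4:**
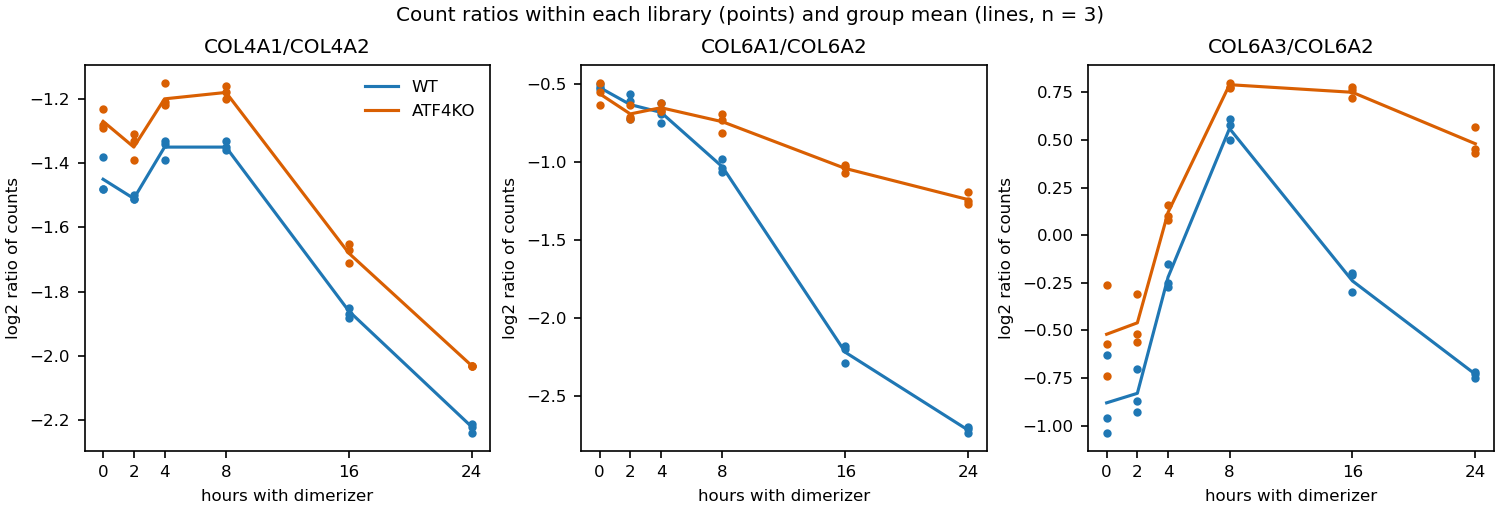
Log2 ratio of counts within each library against hours with the dimerizer for COL4A1 over COL4A2, COL6A1 over COL6A2 and COL6A3 over COL6A2 (points are libraries, lines are means of 3) in WT and ATF4KO cells. The COL4A1 over COL4A2 lines end 0.77 and 0.76 below their start, and the COL6A1 over COL6A2 means end at -2.72 in WT and -1.24 in ATF4KO cells.

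Among the 6 tested collagens that attach to fibrils, 4 were lower and 0 higher at 24 h in each genotype by edgeR. Of all tested genes 32.4% were lower and 33% higher in WT cells, and 33% and 32.4% in ATF4KO cells. COL9A2, a chain of type IX collagen of cartilage, was at 53.2, 54.2 and 54.9 CPM in untreated WT cells and at 6.12, 6.0 and 5.62 CPM at 24 h, a change of -3.19 ± 0.08. The ATF4KO levels went from 48.0, 44.2 and 50.3 CPM to 7.11, 8.75 and 6.97 CPM, a change of -2.64 ± 0.08. The groups did not overlap within either genotype. COL9A1 and COL9A3, its partner chains, were among the untested genes.

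COL16A1 was at 444, 488 and 495 CPM in untreated WT cells and at 159, 160.0 and 169.7 CPM at 24 h. ATF4KO libraries had 496, 519 and 532 CPM untreated and 325, 301 and 306 CPM at 24 h. All 24 h libraries were below the untreated ones, the WT ones lowest, with changes of -1.55 ± 0.04 and -0.74 ± 0.04. COL12A1, a bridge between fibrils, changed by -0.33 ± 0.03 in WT cells and by -0.04 ± 0.03 in ATF4KO cells, where it was not called by edgeR (adjusted p = 0.25). COL22A1, found where muscle meets tendon, changed by -1.49 ± 0.13 and -0.60 ± 0.11. These are 24 h changes, and both genes were called higher earlier. COL12A1 was higher at 4 h in both genotypes (655 to 695 CPM in WT and 646 to 764 in ATF4KO cells) and at 8 h in ATF4KO cells. COL22A1 was higher at 8 h in both (36.7 to 43.6 CPM in WT and 45.8 to 59.5 in ATF4KO cells).

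COL14A1 had 23 counts in the untreated ATF4KO libraries and 2 at 24 h, which per library size is 12.2-fold higher untreated (95% exact interval 3.02 to 107, counting error only). COL7A1, the anchoring fibril collagen that fixes epidermis to dermis, reached its lower level by 8 h. It was at 71.9 ± 2.75 CPM in untreated WT cells and at 43.2 ± 4.43, 42.9 ± 4.03 and 43.6 ± 0.172 CPM at 8, 16 and 24 h (SD, n = 3). In ATF4KO cells it was at 73.8 ± 2.17 untreated, then 44.1 ± 2.22, 42.0 ± 1.49 and 43.6 ± 1.4 CPM. The difference between the 24 h responses was -0.03 ± 0.09 (adjusted p = 0.83, edgeR).

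COL13A1 and COL17A1 were the tested collagens that span the plasma membrane. COL13A1, found at cell adhesion sites, was at 33.3, 24.9 and 28.7 CPM in untreated WT cells, 49.2, 49.5 and 47.4 CPM at 8 h and 39.2, 40.0 and 43.0 CPM at 24 h. ATF4KO libraries had 48.9, 39.3 and 41.1 CPM untreated, 64.4, 61.5 and 58.0 CPM at 8 h and 37.8, 39.2 and 38.5 CPM at 24 h. The 8 h libraries were above the untreated ones in each genotype, by 0.73 ± 0.08 and 0.52 ± 0.07, and so were the WT libraries of 24 h. At 16 h edgeR called COL13A1 higher in WT cells, at 34.0 ± 1.79 CPM, and lower in ATF4KO cells, at 37.1 ± 1.83 CPM (SD, n = 3). TPM fits with all columns turned that ATF4KO direction. The 24 h change was 0.47 ± 0.09 (adjusted p = 6.6e-06, edgeR) in WT and -0.15 ± 0.08 (adjusted p = 0.097) in ATF4KO cells. The difference was -0.62 ± 0.12 (adjusted p = 4.8e-05), and limma on log2(TPM + 1) did not call it (-0.41, adjusted p = 0.31).

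COL17A1, a collagen of skin hemidesmosomes, was at 8.1, 10.2 and 8.57 CPM in untreated WT cells and at 24.2, 22.5 and 22.7 CPM in untreated ATF4KO cells. It changed by -0.57 ± 0.08 in ATF4KO cells at 24 h and by -0.35 ± 0.11 in WT cells (adjusted p = 0.0068, edgeR). The WT call was lost without the second untreated WT library (-0.27, adjusted p = 0.067) and with limma on log2(TPM + 1) (-0.23, adjusted p = 0.29). COL18A1, whose end piece is endostatin, changed by -2.04 ± 0.09 and -1.82 ± 0.09. It overlaps SLC19A1 on the other strand, which had 146.3% as many counts. COL26A1 had 56 counts untreated and 3 at 24 h in WT cells, 16.2-fold higher untreated per library size (95% exact interval 5.27 to 81, counting error only). In ATF4KO cells it had 44 and 3 counts (15.6-fold, 4.99 to 78.4).

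To ask whether responses differed between the genotypes, the ATF4KO change minus the WT change was tested. At 2 h and 4 h edgeR called 0 of 34 members, against 0.299% and 3.28% of all tested genes, and DESeq2 called 0 and 1. At an unadjusted p under 0.05 there were 3 and 4 members, against 7.48% and 13.1% of all tested genes. At 4 h edgeR also called 1 without the first untreated WT library, the second WT library of 4 h or the third untreated ATF4KO library. At 8 h 3 were called higher and 1 lower (11.3% and 6.99% of all), and 7 in all without the first untreated WT library. At 16 h these numbers were 7 and 4 (16.7% and 11%), and at 24 h 12 and 3 (17.7% and 12.1%).

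At 24 h the difference was 0.63 ± 0.05 for COL1A1 (adjusted p = 1.7e-13, edgeR), 0.81 ± 0.05 for COL16A1 (adjusted p = 8.5e-16) and 0.77 ± 0.07 for COL6A1 (adjusted p = 9.7e-12). All 3 fell in both genotypes and fell less in ATF4KO cells. It was 1.01 ± 0.17 for COL8A1 (adjusted p = 4.3e-06), which was at 15.6 ± 0.93 CPM in untreated ATF4KO and 27.3 ± 1.0 CPM in untreated WT cells (SD, n = 3). At 24 h COL8A1 stood at 8.9 ± 1.31 CPM in ATF4KO and 7.76 ± 1.0 CPM in WT cells, and these ranges overlapped. COL9A2 (0.55 ± 0.14), COL12A1 (0.28 ± 0.05) and COL22A1 (0.89 ± 0.17) were also called. With the third untreated ATF4KO TPM column left out, limma on log2(TPM + 1) called none of COL9A2 (0.70, adjusted p = 0.095), COL12A1 (0.19, adjusted p = 0.095) and COL22A1 (0.60, adjusted p = 0.26).

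The calls of the 3 basement membrane differences at 24 h rested on few libraries. COL4A1 differed by 0.20 ± 0.06 (adjusted p = 0.013, edgeR). Its call was lost without the first untreated WT library (0.12, adjusted p = 0.15), the second untreated ATF4KO library (0.15, adjusted p = 0.095) or the first ATF4KO library of 24 h (0.16, adjusted p = 0.056). COL4A2 differed by 0.18 ± 0.05 (adjusted p = 0.0041), which was lost without the second untreated ATF4KO library (0.14, adjusted p = 0.051). COL4A5 differed by 0.52 ± 0.18 (adjusted p = 0.028), and limma on log2(TPM + 1) gave 0.35, adjusted p = 0.52. Leaving out any of 6 libraries also lost that call. These were the second or the third untreated WT library (0.44, adjusted p = 0.078 and 0.44, adjusted p = 0.081), the second or the third WT library of 24 h (0.43, adjusted p = 0.13 and 0.51, adjusted p = 0.063), the second untreated ATF4KO library (0.46, adjusted p = 0.066) and the first ATF4KO library of 24 h (0.37, adjusted p = 0.14).

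**Figure D5:**
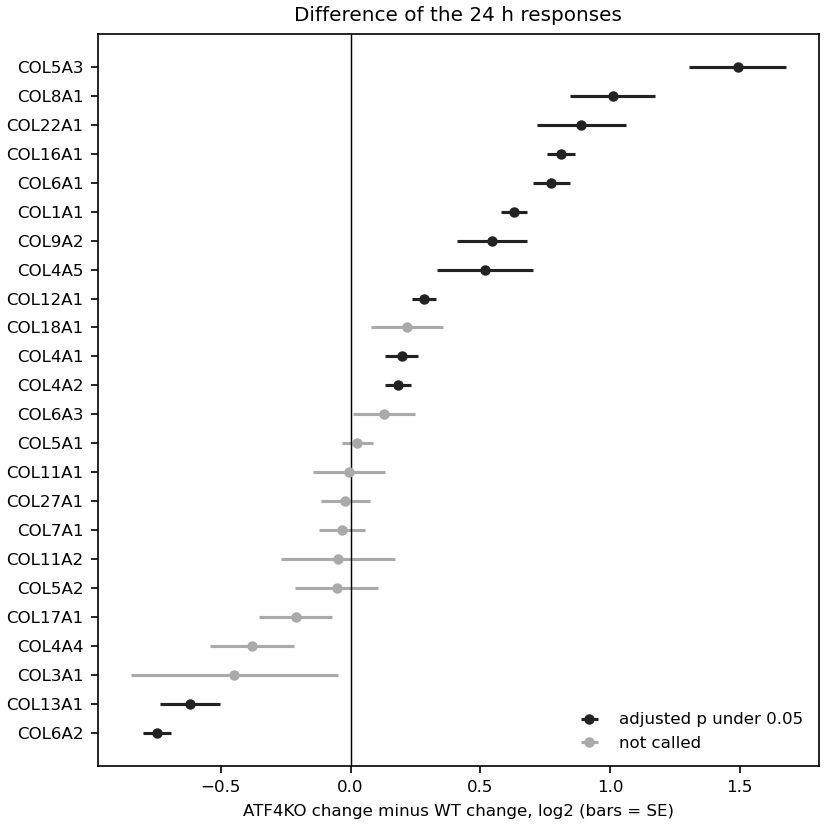
ATF4KO change minus WT change at 24 h (log2, bars are SE) for the 24 collagen genes that reached a mean of 5 CPM in some group. COL5A3 is highest at 1.49, and COL6A2 (-0.75) and COL13A1 (-0.62) are lowest.

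Before treatment, 19 of 34 members differed between ATF4KO and WT cells by edgeR, 11 higher and 8 lower, against 11.6% and 11.9% of all tested genes. COL17A1 was higher by 1.38 ± 0.09 (adjusted p = 4.7e-16), COL6A3 by 0.67 ± 0.09, COL4A5 by 0.61 ± 0.09, COL13A1 by 0.54 ± 0.08 and COL6A2 by 0.33 ± 0.04. COL11A1 was lower, at -0.81 ± 0.07 (adjusted p = 1.8e-12), as were COL8A1 at -0.82 ± 0.10 and COL5A2 at -0.63 ± 0.11. COL1A1 was at 0.00 ± 0.03 (adjusted p = 0.97). Of the deposited TPM columns of untreated ATF4KO cells, the third matched the counts of the same name poorly (r = 0.503 across genes, against at least 0.916 for the other columns), so it is in doubt which library it holds. With all columns, limma on log2(TPM + 1) called 5 members in place of 19. Over all genes, without the third column, limma called 869 higher and 880 lower, against 2213 and 2267 by edgeR.

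Genes that act on collagen were taken from 4 lists chosen with earlier results of these data known. Of all tested genes, 32.4% were lower and 33% higher in WT cells at 24 h (median -0.02), and 33% and 32.4% in ATF4KO cells (median -0.03). Of 18 tested genes for modification, folding and export, 12 were lower and 3 higher in WT cells at 24 h, and 13 and 4 in ATF4KO cells, with medians of -0.19 and -0.34. The prolyl hydroxylases P4HA2 (-1.09 ± 0.06) and P3H2 (-1.07 ± 0.08) and the lysyl hydroxylase PLOD1 (-0.80 ± 0.04) fell in WT cells. P3H4 (0.43 ± 0.06), FKBP10 (0.33 ± 0.03) and PLOD3 (0.20 ± 0.04), which also serve collagen modification and folding, rose. SERPINH1, the collagen chaperone HSP47, was chosen after its values were seen and changed by -0.20 ± 0.03 in WT and -0.83 ± 0.03 in ATF4KO cells, a difference of -0.63 ± 0.04 (adjusted p = 1.8e-15, edgeR).

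Of 11 tested genes for propeptide cleavage and cross-linking, 8 were lower and 2 higher in WT cells at 24 h (32.4% and 33% of all tested genes), and 7 and 3 in ATF4KO cells (33% and 32.4%). LOXL4, a lysyl oxidase that cross-links collagen, went from 354 ± 15.1 to 50.6 ± 2.03 CPM in WT and from 356 ± 7.01 to 62.2 ± 1.64 CPM in ATF4KO cells (SD, n = 3). LOXL1 changed by -2.20 ± 0.05 and the propeptidase BMP1 by -1.19 ± 0.05 in WT cells, and PCOLCE2, an enhancer of cleavage, by 0.69 ± 0.10.

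Of 7 tested breakdown genes, 6 were lower and 1 higher in WT cells at 24 h (32.4% and 33% of all tested genes), and 4 and 1 in ATF4KO cells (33% and 32.4%). The gelatinase MMP2 went from 356 ± 1.92 to 115 ± 1.51 CPM in WT and from 401 ± 18.0 to 126 ± 3.46 CPM in ATF4KO cells. MMP9 was the gene that rose, by 0.80 ± 0.16 in WT and 2.28 ± 0.17 in ATF4KO cells. MRC2, a receptor for collagen uptake, changed by -0.37 ± 0.03 in WT and -1.14 ± 0.04 in ATF4KO cells.

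Of 7 collagen receptors, 6 were lower and 1 higher in WT cells at 24 h (32.4% and 33% of all tested genes), and 5 and 1 in ATF4KO cells (33% and 32.4%). The receptor kinase DDR1 went from 119 ± 3.76 to 21.8 ± 1.81 CPM in WT and from 130.0 ± 2.18 to 38.4 ± 1.49 CPM in ATF4KO cells. DDR2, a receptor kinase for fibrillar collagen, was the one that rose, from 28.1 ± 1.49 to 145 ± 7.62 CPM in WT and from 2.92 ± 0.472 to 4.5 ± 0.579 CPM in ATF4KO cells. Its untreated level was already lower in ATF4KO cells (-3.25 ± 0.12, adjusted p = 1e-24, edgeR), and the difference between the responses was -1.74 ± 0.20 (adjusted p = 1.6e-09).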

How the data were processed

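RNA-seq libraries of 36 samples in 12 groups of 3 were used, grouped by GEO's labels. Expected counts and TPM values per gene were estimated and deposited by the authors with Salmon 0.9.1 on GRCh38 after read checks with FastQC 0.11.5, per the submitters' processing notes. The annotation release and strand setting are not given in the sources used here, and the libraries are directional per the labels' protocols. From 64.2% to 73% of a library's counts above 0 were whole (within 1e-06), and counts were rounded for testing. Gene names came from the deposited TPM table, joined by ID. TPM values were used for levels between genes and, as log2(TPM + 1) or log2(TPM + 0.1) with limma, as alternatives.

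Of 57665 genes, 19043 passed edgeR's count filter by group. With TMM scaling, 1 quasi-likelihood fit over all 12 groups gave 16 comparisons, with Benjamini-Hochberg adjustment over all tested genes. R 4.3.3, edgeR 4.0.16, limma 3.58.1 and DESeq2 1.42.0 were used. On simulated data of 18445 genes, the 24 h comparison in WT cells recovered 62.9% of genes changed by a log2 of 0.5 and 77.8% of those changed by 1. The difference between genotypes at 24 h recovered 49.5% and 70.7%. In the simulation 97 tested genes were changed by 0.5 and 99 by 1, in the WT group of 24 h alone. In the data 6292 genes were called higher and 6171 lower in that group against untreated WT cells. The adjustment therefore differs, and these rates do not measure the sensitivity of the fit to the data.

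The members and lists were chosen with earlier results of these data known. Collagen genes were named where some group averaged 5 CPM or more, plus their partner chains. From each list of genes that act on collagen, up to 4 by adjusted p at 24 h in WT cells and up to 3 that moved against the majority could be named. Same-numbered libraries were not paired in the main fit, because replicate numbers are not said to mark a shared batch. Of 36 libraries, 20 correlated best with their own number, more than the 1 in 3 that random numbering would give. In 0 of 16 comparisons was every same-number correlation over 0.1. Whether same-numbered libraries share a batch is not known, so a replicate block was fitted as an alternative. Of 36 count columns, 33 matched best the TPM column of their own name. The 3 that did not were the untreated ATF4KO ones (r of 0.916, 0.935 and 0.503 for replicates 1, 2 and 3). Count column 2 matched TPM column 1 best (r = 0.962), and count columns 1 and 3 matched TPM column 2 best (0.92 and 0.967). Whether columns of either table are swapped or hold other libraries is not known, so TPM fits were repeated without the third TPM column. Alternatives were DESeq2, RLE scaling, no count filter, only the groups compared, a replicate block, the TPM fits and each library left out. Motifs were searched in RefSeq windows, and genes without a RefSeq entry were not searched.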

Additional observations from a re-analysis of the deposited data

Results flagged for a closer look

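Of 34 tested collagen genes, 15 differed in response between ATF4KO and WT cells at 24 h, 11 at 16 h and 4 at 8 h by edgeR. Over all tested genes the shares higher and lower were 17.7% and 12.1% at 24 h. They were 16.7% and 11% at 16 h, and 11.3% and 6.99% at 8 h. Values here are the ATF4KO change minus the WT change in log2, and each is listed because the difference itself passed the test. Among fibrillar genes it was 0.45 for COL1A1 at 16 h and 0.63 at 24 h, and 0.9, 1.35 and 1.49 for COL5A3 at 8, 16 and 24 h. COL5A1 differed by -0.17 at 8 h, a direction that every TPM fit turned. That call was lost without the third untreated WT library (-0.16, adjusted p = 0.067), the third untreated ATF4KO library (-0.14, adjusted p = 0.12) or the third ATF4KO library of 8 h (-0.12, adjusted p = 0.17). COL1A2 differed by 2.53 at 24 h on 2 counts in WT cells, and leaving out any of 7 libraries lost the call (1.98 to 2.86). These were the first untreated WT library, each WT library of 24 h, the first and second untreated ATF4KO libraries and the first ATF4KO library of 24 h.

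Among network-forming genes the 24 h differences were 0.2 for COL4A1, 0.18 for COL4A2 and 0.52 for COL4A5. COL8A1 differed by 0.83 at 16 h and 1.01 at 24 h. In type VI collagen COL6A1 differed by 0.27, 0.78 and 0.77 at 8, 16 and 24 h, and COL6A2 by -0.44 at 16 h and -0.75 at 24 h.

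Among genes of fibril-associated collagens COL9A2 differed by 0.55 at 24 h. COL12A1 differed by 0.19, 0.29 and 0.28 at 8, 16 and 24 h, and the 8 h call was lost without the second untreated WT library (0.14, adjusted p = 0.056) or the third WT library of 8 h (0.14, adjusted p = 0.061). COL16A1 differed by 0.77 at 16 h and 0.81 at 24 h, and COL22A1 by 0.7 and 0.89. COL14A1 differed by -2.81 at 16 h and -2.61 at 24 h, on 1 and 2 counts in ATF4KO cells.

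Among membrane collagens COL13A1 differed by -0.43 at 16 h and -0.62 at 24 h. COL17A1 differed by -0.34 at 16 h (adjusted p = 0.049), and DESeq2 did not call it (adjusted p = 0.1). Leaving out any of 8 libraries also lost that call, with values of -0.29 to -0.35. These were the first or the third library of untreated WT, WT at 16 h, untreated ATF4KO and ATF4KO at 16 h.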

How the results depend on the processing

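Under RLE scaling 447 of 448 results kept direction and call, under DESeq2 395 of 409, without the count filter 431 of 448, with only the groups compared 423 of 432, and with 1 library left out 3385 of 3528. The replicate block changed the 4 h difference between genotypes from 0 to 1 called members and lost COL17A1 at 16 h (-0.34, adjusted p = 0.054), and moved no other count of calls by over 1.5 times. DESeq2, no count filter and only the groups compared also gave 1 at 4 h. With log2(TPM + 1) 322 of 400 results were kept. Called members under log2(TPM + 1), log2(TPM + 0.1) and both again without the third untreated ATF4KO column were 2, 1, 5 and 5 for WT at 2 h (14 by counts), 13, 12, 14 and 13 for WT at 4 h (22), 3, 2, 1 and 1 for ATF4KO at 2 h (12) and 9, 8, 8 and 8 for ATF4KO at 4 h (20). For the difference at 8 h they were 0, 0, 1 and 0 (4), for untreated cells 5, 4, 8 and 7 (19), and for the difference at 24 h 9 under both settings without that column (15). Limma on TPM called fewer genes of all kinds. For the difference at 8 h, log2(TPM + 1) without that column called 562 genes higher and 712 lower, against 2146 and 1331 by counts. For the difference at 24 h it called 1431 and 1485, against 3379 and 2305. The TPM fits turned these directions, in the same order where all 4 did. COL5A1 gave 0.18, 0.19, 0.1 and 0.1 in ATF4KO cells at 8 h, and differences of 0.24, 0.24, 0.15 and 0.15 at 8 h and 0.47, 0.48, 0.39 and 0.39 at 16 h. COL11A1 gave 0.39, 0.44, 0.13 and 0.14 in ATF4KO cells at 2 h. With all columns it gave 0.22 and 0.26 at 4 h, and COL3A1 gave -0.11 and -0.26 untreated. In ATF4KO cells COL4A4 gave 0.01 and 0.02 at 2 h, COL4A5 0 and 0 at 2 h, COL9A2 0.02 and 0.02 at 4 h and COL13A1 0.1 and 0.11 at 16 h. The cause was not tested. With 1 library left out, WT cells had 11 to 15, 17 to 22, 24 to 26, 28 to 29 and 26 to 29 called members at 2, 4, 8, 16 and 24 h, and ATF4KO cells 5 to 10, 16 to 19, 27 to 29, 27 to 29 and 27 to 29. The differences had 0 to 0, 0 to 1, 3 to 7, 9 to 11 and 11 to 15, and untreated cells 16 to 18. Low counts limit COL1A2, COL14A1 and COL26A1, for which counting intervals are given.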

Other observations

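For COL5A1 the deposited TPM and counts moved apart with hours of dimerizer. The log2 ratio of TPM to CPM, relative to untreated WT cells, was 0.28 ± 0.095 at 8 h, 0.5 ± 0.1 at 16 h and 0.65 ± 0.16 at 24 h in WT cells (SD, n = 3). In ATF4KO cells it was 0.01 ± 0.19 untreated, 0.7 ± 0.045 at 8 h, 1.09 ± 0.019 at 16 h and 1.16 ± 0.05 at 24 h. TPM divides by an estimated transcript length, and transcript-level values were not analysed here. The cause was not tested.

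COL15A1, a relative of COL18A1 found at basement membranes and chosen here after its values were seen, was higher at 4 h in both genotypes (0.88 in WT and 0.83 in ATF4KO cells) and lower at 16 h (-1.58 and -0.86) by edgeR, and was not called at 24 h in either. Its counts were low, summing to 69, 92 and 25 at 0, 4 and 16 h in WT and to 52, 78 and 25 in ATF4KO cells. By CPM the 4 h libraries were above the untreated ones in each genotype, while in the deposited TPM they overlapped.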
